A study of Mus musculus with 4 samples.

Results

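The Schlafen genes were followed through the activation of mouse bone marrow macrophages. Members were taken as every row of the deposited count tables whose symbol is Slfn followed by a digit, which gave 10 of 18256 symbols. Of these, 8 had counts, namely Slfn1, Slfn2, Slfn3, Slfn4, Slfn5, Slfn8, Slfn9 and the pseudogene Slfn10-ps. Slfn14 and the antisense RNA Slfn5os had no count in any library. The rows were chosen by symbol, but the family itself was selected on the differences between M1 and M0 in these same 4 libraries. Its changes are therefore given as a description, with fold changes and errors but with no p-value for a member.

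Wild-type marrow cells were cultured for 7 days with 20 ng/ml macrophage colony-stimulating factor (MCSF), which turns them into macrophages. M1 macrophages then received bacterial lipopolysaccharide (LPS, 100 ng/ml) with interferon-gamma (IFN-γ, 20 ng/ml) for 24 h, and M0 macrophages received neither. There were 2 libraries of each group, made from total RNA depleted of ribosomal RNA. The labels give no age or sex of the mice, do not say whether the 2 libraries of a group came from separate animals or cultures, and do not say whether MCSF stayed in the M1 medium. The spread between libraries may therefore be technical. LPS and IFN-γ were always given together, so their effects cannot be told apart, and a single time point gives no order of events.

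Schlafen proteins are found in mammals and are best known from immune cells. They share an N-terminal core that in several members cuts transfer RNA or binds it, and many of the genes respond to interferons. The mouse family is usually divided by length. Slfn1 and Slfn2 encode short proteins made of the core alone, Slfn3 and Slfn4 intermediate ones, and Slfn5, Slfn8, Slfn9 and Slfn14 long ones that add a helicase-like part. Slfn2 keeps mouse T cells and monocytes from losing quiescence and shields transfer RNA from cleavage, and Slfn1 slowed the growth of mouse thymocytes and fibroblasts when overproduced. Slfn4 is a gene of the myeloid lineage in mice, Slfn3 is known from the differentiation of gut epithelium in rodents, and human SLFN5 restricts herpes simplex virus. SLFN14 is known as a ribosome-bound nuclease of rabbit reticulocytes.

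All 10 members lie in 1 cluster on chromosome 11 of GRCm38, the assembly that mm10 names, at chr11:82942341-83286726, a span of 344.4 kb (GENCODE M21). In order of position they are Slfn5os on the minus strand, Slfn5 on the plus strand, then Slfn9, Slfn8 and Slfn10-ps on the minus strand. Slfn2, Slfn1, Slfn4 and Slfn3 follow on the plus strand, and Slfn14 closes the cluster on the minus strand. The short genes are compact: Slfn2 spans chr11:83065112-83070678 with 1664 exonic bases and Slfn1 chr11:83116849-83122670 with 1864. Slfn4 spans chr11:83175186-83190216 with 3964 exonic bases, and Slfn3 begins just after it at chr11:83191330-83215154 with 3411. The long genes are Slfn5 (chr11:82951349-82964840, 6326 exonic bases), Slfn9 (chr11:82978390-82991830, 5965) and Slfn8 (chr11:83002158-83020810, 4091). Slfn10-ps (chr11:83028130-83040042, 3621 exonic bases) is annotated as a transcribed pseudogene. Slfn14 spans chr11:83275110-83286726 with 3706 exonic bases.

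Promoter letters are shown because 7 members fell into 2 sets by the letters their start regions share. RefSeq windows of GRCm38.p6, from 250 bases before to 50 after a gene's start, were held for 9 of the 10 members. The first motif searched was the core of the interferon-stimulated response element, GAAA followed by any 2 bases and a second GAAA (TTTC, 2 bases, TTTC on the other strand). It was present in Slfn5, Slfn9 and Slfn8, which is 3 of 9 members, against 3.44% of 32851 windows. The match lies 155 bases before the start of Slfn5, 45 before that of Slfn9 and 48 before that of Slfn8. Capitals mark it in these 60-base stretches, each read 5′ to 3′ on the gene's own strand.
Slfn5, chr11:82951922-82951981, plus strand: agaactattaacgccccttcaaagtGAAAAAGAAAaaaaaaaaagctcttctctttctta
Slfn9, chr11:82991841-82991900, minus strand: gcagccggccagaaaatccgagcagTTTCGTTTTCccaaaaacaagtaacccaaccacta
Slfn8, chr11:83020824-83020883, minus strand: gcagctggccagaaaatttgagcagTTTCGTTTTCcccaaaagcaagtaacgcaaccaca
The Slfn9 and Slfn8 stretches are close copies, and the 250 bases before the 2 starts share an unbroken run of 20 bases. Slfn5 is joined to them by the motif alone. In the 250 bases before the start, its longest shared run was 7 bases with Slfn9 and 8 with Slfn8. It was also 8 bases with each of Slfn1, Slfn4 and Slfn3. GENCODE starts Slfn5 further upstream than RefSeq, so the Slfn5 stretch lies in an intron there and within the span of Slfn5os, while the other 2 lie outside any annotated gene.

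Slfn2, Slfn1, Slfn4 and Slfn3 held instead the run ACTTCCTGG, whose other strand reads CCAGGAAGT and contains the GGAA core bound by ETS factors such as PU.1, a factor macrophages need to form. This run was chosen after these promoters had been viewed. It was present in 4 of 9 members, against 0.843% of all windows, at 55 bases before the start of Slfn2, 74 before that of Slfn1, 73 before that of Slfn4 and 42 before that of Slfn3. Capitals mark it below, in stretches that overlap no annotated gene.
Slfn2, chr11:83065032-83065091, plus strand: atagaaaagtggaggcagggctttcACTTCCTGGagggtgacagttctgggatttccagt
Slfn1, chr11:83116721-83116780, plus strand: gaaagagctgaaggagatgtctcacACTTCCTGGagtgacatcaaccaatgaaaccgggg
Slfn4, chr11:83175088-83175147, plus strand: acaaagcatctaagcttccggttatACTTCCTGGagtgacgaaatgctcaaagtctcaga
Slfn3, chr11:83191263-83191322, plus strand: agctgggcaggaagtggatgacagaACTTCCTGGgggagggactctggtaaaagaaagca
Slfn1 and Slfn4 share more than the run itself, with 15 identical bases in a row. Slfn14, which had no count in any library, lacks the full ACTTCCTGG. Its window still shares ttcctggagg with Slfn2 and ttcctggag with Slfn1 and Slfn4, which also hold the GGAA core on the other strand. The ETS-type core is therefore not limited to members with counts. The composite core of ETS and interferon regulatory factors, GGAA followed by any 2 bases and GAAA (TTTC, 2 bases, TTCC on the other strand), was found only in Slfn2 among the members, where it overlaps the run, against 2.72% of windows. The core TTCNNNGAA of the gamma-activated site was in 0 of 9 member windows and in 8.3% of all windows. The NF-κB consensus was in Slfn9 and Slfn1, and in 8.46% of all windows. These are matches of letters in 1 window per gene, and no binding was measured.

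All 8 members with counts were higher in M1 macrophages and none was lower. Each was called by the edgeR quasi-likelihood test over all 12966 tested genes at an adjusted p under 0.05, a call that 24.2% of tested genes received in the same direction. All 8 had a log2 fold change of at least 1, and 9.93% of the 12966 tested genes were both called higher in M1 and changed by that much. In all 8 both M1 libraries lay above both M0 libraries, as they did in 37% of tested genes. Since the family was proposed from this contrast, nothing is read from these counts. The fitted log2 fold changes of M1 over M0 ran from 1.63 for Slfn9 to 9.42 for Slfn4, with a median of 2.42 beside -0.02 over all tested genes. Of all calls in either direction 50.3% were higher in M1, and 29.8% when only library totals were used for scaling. Values below are depth-scaled counts (CPM, on library totals times TMM factors), with M1 replicates 1 and 2 given before M0 replicates 1 and 2. Fewer cells of one kind and less RNA per cell cannot be told apart in such bulk libraries.

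**Figure D1:**
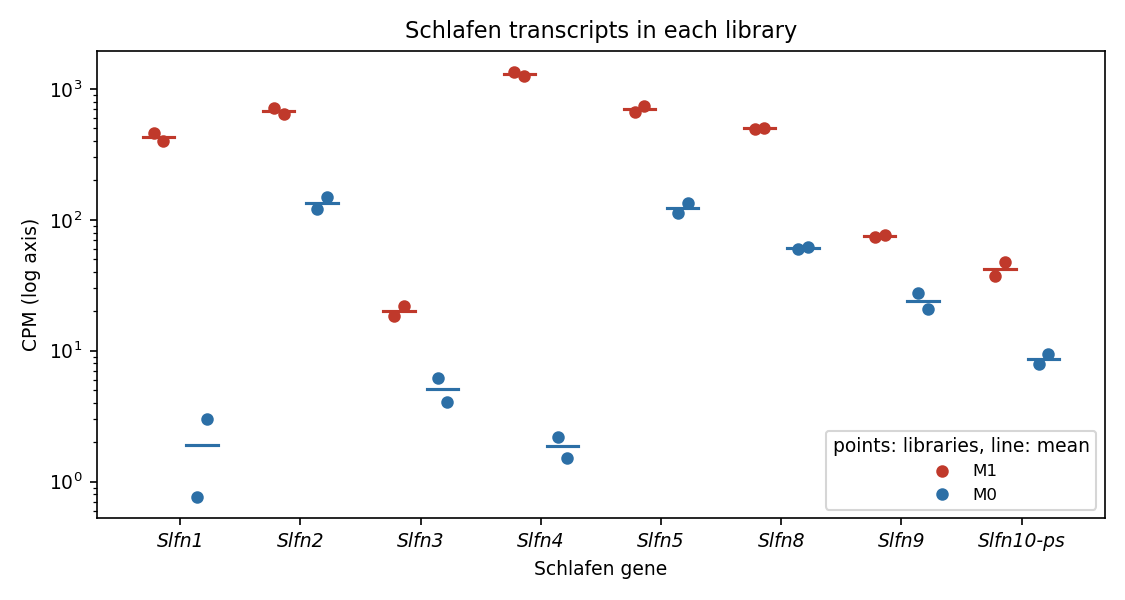
CPM on a log axis for each of the 8 Schlafen members with counts, with 1 point per library, M1 left of M0, and a bar at each group mean. For all 8 members both M1 points lie above both M0 points, and the gap is widest for Slfn4 (1298 against 1.86 CPM) and Slfn1 (432 against 1.89 CPM).

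Slfn4 stood at 1349 and 1246 CPM in M1 macrophages, against 2.21 and 1.51 CPM in M0 macrophages. These are 21918 and 20262 reads in M1 but only 46 and 26 reads in M0. Slfn4 was thus close to silent in resting macrophages and high in both M1 libraries. The fitted log2 fold change was 9.42 ± 0.17 (SE, n = 2 each), or 687-fold, the rank 15 among the rises of all tested genes. The 2 M0 libraries differed by no more than counting error, with a ratio of replicate 2 to 1 of 0.683 (95% exact interval 0.405 to 1.13, covering counting error only).

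Slfn1 stood at 464 and 400 CPM in M1 macrophages (7536 and 6509 reads), against 0.767 and 3.01 CPM in M0 macrophages (16 and 52 reads). The groups were far apart, but the M0 level itself is poorly fixed. The M0 libraries differed 3.93-fold (95% exact interval 2.21 to 7.37), the widest spread within a group among the members. The log2 fold change was 7.90 ± 0.31 (SE), or 239-fold, and ranked 52 among all rises. It came to 7.16 without M0 replicate 1 and to 9.13 without M0 replicate 2, so its size rests on which M0 library is used, while it was higher in M1 either way. Slfn4 kept a narrower range, from 9.20 to 9.74, when M0 libraries were left out.

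Slfn2, the other short member, behaved otherwise. It had 710 CPM in M1 replicate 1 and 641 in replicate 2, against 120.1 CPM in M0 replicate 1 and 150.2 in replicate 2. Slfn2 was therefore well expressed before stimulation, at 2506 and 2593 reads in M0. Its log2 fold change was 2.32 ± 0.12 (SE), or 5.00-fold. Its M0 libraries differed by more than counting error (ratio 1.25, interval 1.18 to 1.32), yet by far less than the groups.

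Slfn3, the intermediate neighbour of Slfn4, was the least abundant member per kilobase in M1. It stood at 18.3 and 22.1 CPM in M1 macrophages, against 6.14 and 4.06 CPM in M0 macrophages. Its log2 fold change was 1.97 ± 0.23 (SE), and its M0 libraries differed beyond counting error, with a ratio of 0.661 (interval 0.487 to 0.891). Slfn3 and Slfn4 lie 1 after the other on the same strand, but their fold changes were far apart. Of the 50-base windows of the longest Slfn3 transcript, 7.97% also occur in Slfn4 and 18.5% in any other annotated gene. Reads from such windows could have been assigned to either gene, and their part in the Slfn3 value was not tested.

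Of the long members, Slfn5, Slfn8 and Slfn9 had counts in both groups. Slfn5 had 664 and 744 CPM in M1 macrophages, against 114 and 133 CPM in M0 macrophages. Its log2 fold change was 2.51 ± 0.12 (SE), or 5.70-fold. Slfn5os runs on the opposite strand and overlaps 559 exonic bases of Slfn5, which is 8.84% of its exons. The strand setting of the counting is not given in the sources used here, so reads of Slfn5 in that stretch could include antisense RNA.

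Slfn8 was the steadiest member. It had 496 and 507 CPM in M1 macrophages, against 59.6 and 61.5 CPM in M0 macrophages, so the libraries of each group nearly coincided. Its log2 fold change of 3.05 ± 0.10 (SE), or 8.29-fold, was the largest among the long members. Slfn9, next to it on the chromosome, had 73.7 and 76.3 CPM in M1 macrophages, against 27.7 and 20.7 CPM in M0 macrophages. The rise of Slfn9 was the smallest in the family, at a log2 fold change of 1.63 ± 0.15 (SE), or 3.09-fold. Its M0 libraries differed beyond counting error (ratio 0.748, interval 0.654 to 0.855).

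Slfn10-ps, which is not expected to give a full-length protein, had 37.2 and 47.2 CPM in M1 macrophages, against 7.96 and 9.45 CPM in M0 macrophages. Its log2 fold change was 2.28 ± 0.18 (SE), close to the 2.32 of its neighbour Slfn2. Slfn8, Slfn9 and Slfn10-ps are the most alike in sequence: 13.5% of the 50-base windows of Slfn10-ps also occur in Slfn9 and 11.8% in Slfn8. In turn 10.7% of the Slfn8 windows occur in Slfn10-ps, and Slfn8 had 8065 and 8244 reads in M1 against 605 and 768 for Slfn10-ps. Reads from such windows could have been assigned to any of these genes, and their part in the Slfn10-ps value was not tested. Taken as 1 summed row, an alternative chosen after the shared sequence had been computed, Slfn8, Slfn9 and Slfn10-ps gave a log2 fold change of 2.73. Slfn3 and Slfn4 summed in the same way gave 7.55. Among the members with counts Slfn1 is the most distinct, with 0.606% of its windows found elsewhere.

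**Figure D2:**
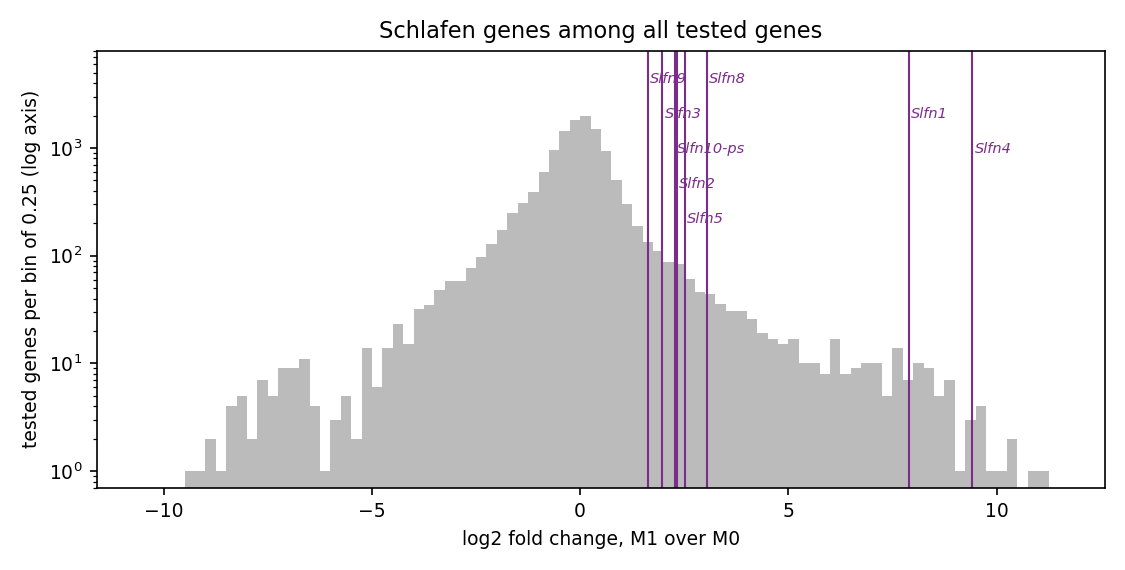
Histogram of the fitted log2 fold change of M1 over M0 for the 12966 tested genes, with the number of genes per bin on a log axis and a vertical line at each Schlafen member. The 8 lines all lie right of 0, with 6 between 1.63 and 3.05 and the lines of Slfn1 and Slfn4 at 7.90 and 9.42.

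Levels of different genes were compared as CPM per kilobase of annotated exon. In M1 macrophages Slfn2 was first at 406 ± 29.6 CPM per kb (SD, n = 2), followed by Slfn4 at 327 ± 18.3, Slfn1 at 232 ± 24.1, Slfn8 at 123 ± 1.85 and Slfn5 at 111 ± 8.94. A second tier held Slfn9 at 12.6 ± 0.31, Slfn10-ps at 11.7 ± 1.95 and Slfn3 at 5.92 ± 0.79 CPM per kb. Libraries of Slfn9 and Slfn10-ps overlapped, and those of Slfn8 and Slfn5 did so when the longest transcript was used as the length. The other neighbours in the M1 order did not overlap.

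The M0 order was different below its first place. Slfn2 led again at 81.3 ± 12.8 CPM per kb (SD, n = 2), followed by Slfn5 at 19.5 ± 2.22, Slfn8 at 14.8 ± 0.33 and Slfn9 at 4.05 ± 0.83. Then came Slfn10-ps at 2.40 ± 0.29, Slfn3 at 1.49 ± 0.43, Slfn1 at 1.01 ± 0.85 and Slfn4 at 0.468 ± 0.125 CPM per kb. Libraries of Slfn3 and Slfn1 overlapped, as did those of Slfn1 and Slfn4, so Slfn1 is not told apart from either neighbour, while Slfn3 and Slfn4 did not overlap. By its mean Slfn4 was last in M0 macrophages, and it was second in M1 macrophages.

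**Figure D3:**
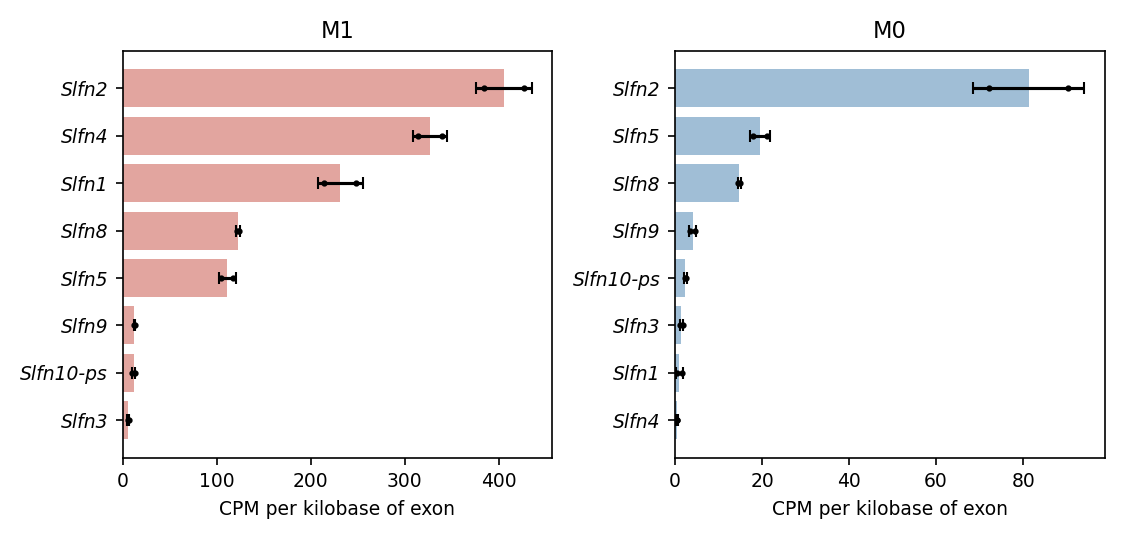
CPM per kilobase of annotated exon for each member, with bars for the mean of 2 libraries, whiskers for its SD and points for the single libraries, M1 in the left panel and M0 in the right panel, each panel on its own axis. Slfn2 is the tallest bar in both, while Slfn4 is second in M1 and last in M0.

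Summed over the 8 members, the family reached 1229 ± 58.1 CPM per kb in M1 macrophages and 125 ± 15.1 in M0 macrophages (SD, n = 2 each). Slfn2 made up 33.0 ± 0.85% of that sum in M1 and 64.9 ± 2.40% in M0. Slfn4 made up 26.6 ± 0.23% in M1 and 0.383 ± 0.146% in M0, and Slfn1 18.8 ± 1.07% in M1 and 0.776 ± 0.588% in M0. The share of Slfn5 was 9.08 ± 1.16% in M1 and 15.6 ± 0.11% in M0. The share of Slfn8 was 9.99 ± 0.62% in M1 and 11.9 ± 1.18% in M0. Slfn9, Slfn10-ps and Slfn3 each made up 0.483% to 1.02% in M1 and 1.22% to 3.31% in M0, which is below the other members in M1 but above Slfn1 and Slfn4 by their means in M0.

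By position, the 2 members with the largest fold changes, Slfn1 and Slfn4, are neighbours on the plus strand. Slfn2 on one side of them and Slfn3 on the other had log2 fold changes of 2.32 and 1.97. Beyond them Slfn14 had 0 reads in all 4 libraries. At these depths 3 reads correspond to 0.185 CPM in each M1 library and to 0.144 and 0.174 CPM in M0 replicates 1 and 2, and a count of 0 allows levels up to that. Slfnl1, a gene of similar name on chromosome 4 that the symbol rule leaves out, also had 0 reads throughout.

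**Figure D4:**
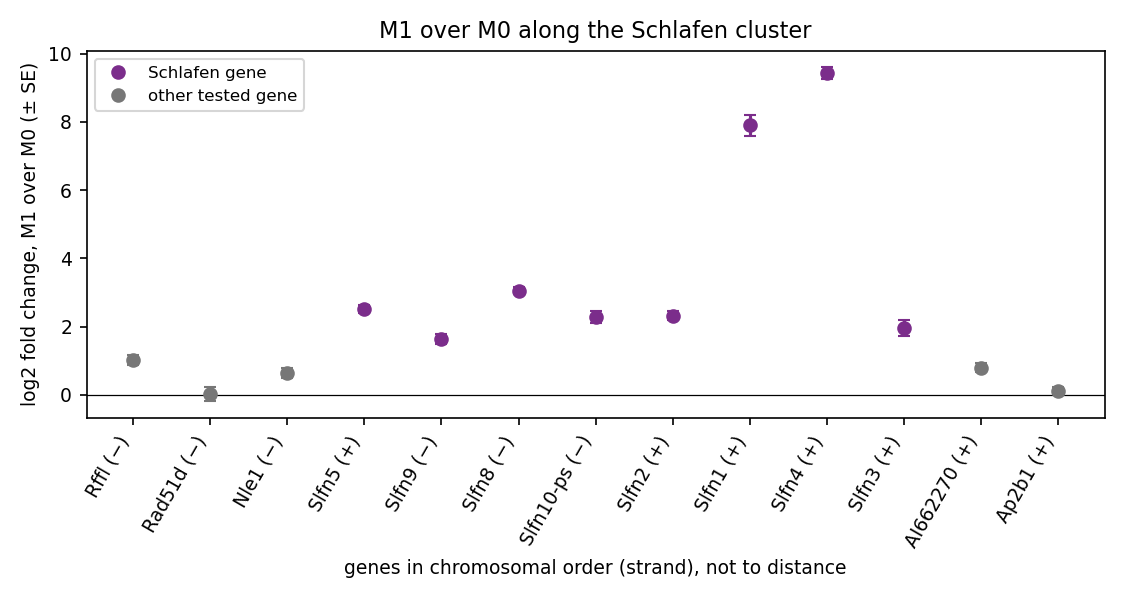
Fitted log2 fold change of M1 over M0 with its SE for the Schlafen members and the neighbouring genes Rffl, Rad51d, Nle1, AI662270 and Ap2b1, in chromosomal order from left to right. Slfn1 and Slfn4 stand at 7.90 and 9.42, the other members between 1.63 and 3.05, and the genes that are not Schlafen members between 0.02 and 1.02.

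The genes around the family were far less changed, and these were tested, since the rule did not use them. Rffl, a ubiquitin ligase gene and the fourth gene to the left, rose to 46.8 ± 6.51 CPM in M1 macrophages, against 23.0 ± 0.52 in M0 macrophages (SD, n = 2 each), a log2 fold change of 1.02 ± 0.14 (SE, edgeR quasi-likelihood adjusted p = 0.00013). Nle1, a ribosome assembly factor gene and the nearest to the left outside the span, had 38.5 ± 1.84 CPM in M1 and 24.5 ± 3.46 CPM in M0 (log2 fold change 0.66 ± 0.15, adjusted p = 0.0034 by edgeR). AI662270, a noncoding transcript between Slfn3 and Slfn14, had 81.0 ± 12.7 CPM in M1 and 46.5 ± 0.27 CPM in M0 (log2 fold change 0.80 ± 0.13, adjusted p = 0.00039 by edgeR). Without M0 replicate 1 the calls of Nle1 and AI662270 were lost, at adjusted p = 0.081 and 0.051, with log2 fold changes of 0.52 and 0.79.

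Rad51d, a gene of homologous recombination that lies between Rffl and Nle1, had 13.3 ± 2.95 CPM in M1 and 13.1 ± 0.63 CPM in M0 and did not pass the test (adjusted p = 0.94 by edgeR). On the right, Ap2b1, an endocytic adaptor gene, had 230 ± 22.5 CPM in M1 and 211 ± 8.93 CPM in M0 and did not pass either (adjusted p = 0.36 by edgeR). Fndc8, AA465934 and Snord7 on the flanks, Unc45b, which overlaps only the left end of the span, and Mir7679 inside it had too few reads to be tested. None of the neighbours with values given here reached the smallest fold change of a Schlafen member, that of Slfn9.

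The tested genes outside the family most like each member were found by Euclidean distance in log2 CPM over the 4 libraries, which weighs level and change together. For Slfn4 the nearest was Ms4a4c, a gene of the MS4A family, at 1481 and 1212 CPM in M1 and 1.58 and 1.56 CPM in M0, a distance of 0.476. The next nearest were Il1a, which encodes the cytokine interleukin-1 alpha, at 1.47 and Cd38, an NAD-consuming surface enzyme, at 1.499. So only 1 gene came close to the Slfn4 pattern. For Slfn1 the nearest were Ifi206, of the interferon-inducible p200 family, at 1.00, the scavenger receptor gene Marco at 1.08 and the guanylate-binding protein gene Gbp5 at 1.19.

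Cflar, which encodes an inhibitor of caspase activation, was among the nearest genes of both Slfn5 and Slfn2, at distances of 0.201 and 0.378. Slfn8 was nearest to Jak2, a kinase of the IFN-γ receptor, at 0.231, with 540 and 576 CPM for Jak2 in M1 and 62.0 and 63.1 CPM in M0. Slfn9 was nearest to the Notch ligand gene Jag1 at 0.288, Slfn3 to the erythrocyte membrane gene Gypc at 0.217 and Slfn10-ps to Trim34a, of the TRIM family, at 0.314. With 4 libraries in 2 groups, such likeness rests on the 2 group levels.

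Genes that carry the interferon signal were taken as a list of 10 receptors, JAK kinases and STATs. Of these 8 rose in M1, 1 fell and 1, Jak1, did not pass, with a median log2 fold change of 1.07. Over all tested genes 24.2% were higher and 24% lower. Stat2, a transcription factor of type I interferon signalling, averaged 663.5 ± 57.5 CPM in M1 and 73.5 ± 0.61 CPM in M0 (log2 fold change 3.17 ± 0.11 SE). Jak2 had a log2 fold change of 3.16, near the 3.05 of Slfn8. Ifngr1, the ligand-binding chain of the IFN-γ receptor, fell to 93.2 ± 3.04 CPM in M1, against 213.9 ± 7.53 in M0 (log2 fold change -1.20 ± 0.10 SE, edgeR adjusted p = 1.8e-06).

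Of 8 tested interferon regulatory factors, 3 rose, 2 fell and 3 did not pass, with a median log2 fold change of 0.11. Irf7, the factor that amplifies type I interferon, rose most, to 1529 ± 36.2 CPM in M1 against 16.6 ± 1.48 in M0, a log2 fold change of 6.52. That lies between those of the 6 moderate Schlafen members and of Slfn1. Irf9 and Irf1 rose by log2 fold changes of 1.38 and 1.37. Irf8, a lineage factor of monocytes and macrophages that pairs with PU.1, fell to 84.3 ± 1.84 CPM in M1 against 160.7 ± 5.96 in M0. Irf4, at 0.677 ± 0.609 CPM in M1 and 3.37 ± 0.64 CPM in M0, was the other one called lower. Its call was lost without M0 replicate 1 and without M0 replicate 2, at edgeR adjusted p = 0.11 and 0.165, which left 1 factor lower. All 18 listed antiviral genes induced by interferon rose, with a median log2 fold change of 5.22. Among them Usp18, which dampens interferon receptor signalling, Mx1, an antiviral GTPase, and Ifi44 had log2 fold changes of 6.52, 6.51 and 6.49.

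**Figure D5:**
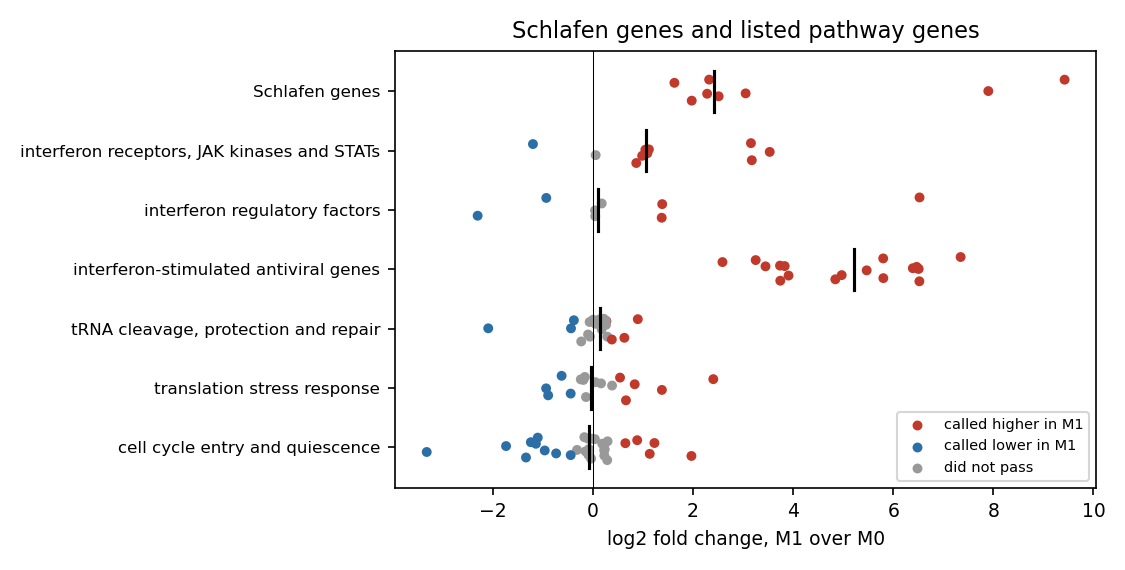
Fitted log2 fold changes of M1 over M0, with 1 point per tested gene, for the Schlafen members and for the 6 lists of related genes, with the median of each marked. The antiviral list is centred at 5.22 and the Schlafen members at 2.42, while the lists on transfer RNA, translation stress and cell cycle are centred near 0.

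Genes of the processes that Schlafen proteins act on were counted next. Beside these counts stand the shares over all tested genes, 24.2% higher and 24% lower. In the list on cleavage, protection and repair of transfer RNA, 4 of 19 tested genes rose, 3 fell and 12 did not pass, with a median log2 fold change of 0.13. Fam98b, a subunit of the transfer RNA ligase complex, rose to 70.8 ± 9.04 CPM in M1, against 38.0 ± 2.00 in M0. Rnh1, the inhibitor of the nuclease angiogenin, had 293 ± 35.2 CPM in M1 and 396 ± 21.2 CPM in M0, and Elac2, which trims the ends of transfer RNA precursors, 67.1 ± 8.94 in M1 and 43.4 ± 1.56 in M0. Rnh1 was called lower and Elac2 higher, at edgeR adjusted p = 0.0062 and 0.0018. Both calls were lost when M0 replicate 1 was left out (adjusted p = 0.084 and 0.081) and when M0 replicate 2 was left out (0.14 and 0.062), and the list then had 1 gene higher and 1 lower in either case.

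Of 16 tested genes of the translation stress response, 5 rose, 4 fell and 7 did not pass, with 2 lower without M0 replicate 1 and 8 lower when scaled by library totals. In the main fit 24.2% of all tested genes were higher and 24% lower. Eif2ak2, the double-stranded RNA sensor PKR, rose to 237 ± 15.7 CPM in M1, against 44.8 ± 0.25 in M0 (log2 fold change 2.40 ± 0.11 SE), about as much as Slfn2 and Slfn5. Eif2ak4, the kinase that senses uncharged transfer RNA, fell to 29.9 ± 2.60 CPM in M1, against 55.6 ± 0.56 in M0 (log2 fold change -0.89 ± 0.12 SE). Of their downstream factors, Ddit3 rose to 20.8 ± 0.14 CPM in M1, against 8.02 ± 1.85 in M0, and Atf3 fell to 143 ± 17.2 in M1, against 273.7 ± 3.59 in M0.

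Of 29 genes of cell cycle entry and quiescence, 5 rose, 9 fell and 15 did not pass, with a median log2 fold change of -0.08. The same fit called 24.2% of all tested genes higher and 24% lower. Scaled by library totals, 14 of the listed genes were lower. Cdkn1a, which encodes the cell cycle inhibitor p21, rose to 310.5 ± 1.39 CPM in M1, against 79.4 ± 3.18 in M0 (log2 fold change 1.97 ± 0.10 SE). Its relative Cdkn1c fell to 1.45 ± 0.13 CPM in M1, against 14.5 ± 0.59 in M0. E2f2, an S-phase transcription factor, and Tob1, an antiproliferative gene, fell with log2 fold changes of -1.34 and -1.74. Ccnd1, the cyclin D1 gene that overproduced Slfn1 was reported to lower in mouse fibroblasts, had 103 ± 5.92 CPM in M1 and 116 ± 5.90 CPM in M0 and did not pass the test (log2 fold change -0.17, edgeR adjusted p = 0.19). It was called lower with upper-quartile factors (-0.28, adjusted p = 0.045) and with library totals (-0.42, adjusted p = 0.0059).

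The cells carried the markers of their label: all 10 macrophage markers had counts and together reached 29999 to 30487 CPM in M1 and 21386 to 23745 CPM in M0. Marker lists of other blood cells had far smaller sums. T and NK cell markers summed to 6.03 to 6.83 CPM in M1 and 21.7 to 23.4 CPM in M0, with 8 of 11 detected and Cd3g, Ncr1 and Prf1 at 0. B cell markers summed to 35.9 to 37.5 CPM in M1 and 137.5 to 149 CPM in M0, with 3 of 5 detected and Ms4a1 at 0. All 10 neutrophil markers had counts, summing to 110.5 to 149.5 CPM in M1 and 243 to 255 CPM in M0. Of 9 tested, 7 were called lower and 1, Camp, higher, at 6.95 ± 0.18 CPM in M1 and 2.89 ± 0.01 CPM in M0. Among all tested genes 24% were called lower and 24.2% higher. All 7 dendritic cell markers had counts, summing to 67.3 to 75.8 CPM in M1 and 165 to 185 CPM in M0. Itgax, which macrophages also express, carried most of that sum, with 63.6 ± 8.11 CPM in M1 and 171 ± 13.8 CPM in M0. Of 5 tested dendritic cell markers, 3 were called lower and 2 higher, namely Ccr7, at 4.99 and 4.37 CPM in M1 and 0 in M0, and Xcr1, at 3.45 and 1.72 CPM in M1 and 0.192 and 0 CPM in M0. The 4 monocyte markers summed to 160 to 161 CPM in M1 and 156 to 173 CPM in M0. The part of these cells in the Schlafen levels was not tested.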

How the data were processed

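Raw read counts by gene symbol were deposited. The submitters' processing notes name featureCounts (Subread 2.0.1), the mm10 build, DESeq2 1.30.1 and R 4.0.4. The annotation, the strand setting and the treatment of reads that map to several places are not given in the sources used here. Totals were 17838606 and 17633945 counts in M1 replicates 1 and 2 and 18987705 and 15921466 in M0. Of 18256 symbols, 17855 were found in GENCODE M21, which gave coordinates, exon lengths and transcripts for the search of shared 50-base windows.

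Groups were compared with the edgeR 4.0.16 quasi-likelihood test in R 4.3.3 (TMM factors 0.911 and 0.922 in M1, 1.10 and 1.08 in M0; filterByExpr with minimum count 10 and total 15; Benjamini-Hochberg, 0.05), which tested 12966 genes and left out 5290. With 2 residual degrees of freedom the coefficient of variation was 10.9%. The fit was also run on simulated counts, with the common dispersion given to every gene and far fewer changed genes than here. That run does not bear on the choice of scaling factors. SE is the log2 fold change divided by the root of F. Intervals between libraries are exact binomial and cover counting error only.

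The members and lists were chosen with earlier results of these data known. Genes named are every member, the 4 annotated rows on either side, up to 4 called genes per list with the largest change, given 10 CPM or more in either group, and the 3 genes most like each member; some of these are not reported here. Ccnd1, Jak1, Irf4 and the markers Camp, Itgax, Ccr7 and Xcr1 were added after their values were seen. Alternatives were other scaling factors, DESeq2 1.42.0, limma-voom (limma 3.58.1), other filters, the replicate number as a block and each library left out.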

Additional observations from a re-analysis of the deposited data

How the results depend on the processing

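All 8 members stayed called higher in M1 under each of the 12 alternatives, with log2 fold changes of 7.16 to 9.13 for Slfn1, 2.07 to 2.50 for Slfn2, 1.72 to 2.31 for Slfn3, 9.17 to 9.74 for Slfn4, 2.26 to 2.64 for Slfn5, 2.80 to 3.08 for Slfn8, 1.38 to 1.86 for Slfn9 and 2.03 to 2.44 for Slfn10-ps. Scaling by library totals moved the median of all genes by -0.25 and upper-quartile factors by -0.10, with members shifted alike. With library totals 2026 genes were higher and 4776 lower in M1, against 3140 and 3108, and the lists on transfer RNA, translation stress and cell cycle had 2 higher, 8 lower and 14 lower. Leaving out single libraries gave 1691 to 2965 genes higher and 1463 to 2854 lower, 1 to 3 neighbours of the cluster higher, 1 to 2 interferon regulatory factors lower, 1 to 6 genes of the transfer RNA list higher and 1 to 3 lower, 2 to 4 translation stress genes lower and 6 to 9 cell cycle genes lower. The lowest of these counts came when an M0 library was left out. Rad51d, which was not called, changed sign to -0.082 with upper-quartile factors and -0.23 with library totals, and ran from -0.21 to 0.23 when single libraries were left out. Ap2b1 changed sign to -0.13 with library totals. Per kilobase not shared with other genes, Slfn2 stood at 437 CPM per kb in M1. The cause of these shifts was not tested.

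Nothing in the labels says whether replicate numbers pair the samples. The deviations of same-numbered libraries from their group means correlated at -0.08. With 2 libraries per group these deviations mirror each other, so this value cannot settle whether the samples were paired. With the replicate number as a block 2957 genes were higher and 2975 lower in M1, and the 8 members stayed called. The planned sum of members sharing most of their transcript was not run, since no pair shares that much.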
